A study of Homo sapiens with 4 samples.

Results

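Genes that mark monocytes and macrophages were compared between MV4-11 and MV4-11R. MV4-11 is a human acute myeloid leukaemia line, and MV4-11R is 1 derivative line that was grown from it over 3 months under rising amounts of PKC412 (midostaurin), which blocks FLT3 among several kinases. RNA was measured on 2 arrays per line, and the study asks how losing EZH2, a histone methyltransferase, relates to drug resistance. The labels call MV4-11 drug-sensitive with high EZH2 and MV4-11R drug-resistant with low EZH2. Whether PKC412 was present when RNA was taken is not given in the sources used here, and with 1 derivative line, resistance cannot be told apart from any other difference that arose during the culture. The 37 listed genes were chosen by name from what they mark, with earlier results of these data known. That holds for the other gene lists used below too, so the shares of listed genes that passed are descriptive. A gene counted as measured where a probe set of the array was assigned to it alone. Of the 37, 33 were measured, among 18417 genes in all. FCGR1A and MS4A7 lay on probe sets assigned to several genes, and CD33 and LILRB4 were not analysed here.

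Monocytes develop from myeloid progenitors under transcription factors such as PU.1 (gene SPI1), C/EBP proteins and IRF8, and mature into macrophages in tissues. Their markers include lysozyme and calcium-binding S100 proteins, lysosomal and oxidase proteins, scavenger receptors and lectins that take up particles and lipids, and pairs of activating and inhibitory receptors. The activating receptors signal through small adaptors, TYROBP (DAP12) and FCER1G, whose ITAM motifs recruit the kinase SYK, while the inhibitory receptors carry ITIM motifs that recruit phosphatases such as PTPN6. AML cells with monocytic features carry many of these markers on their surface.

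Values are log2 signal after RMA, the background correction, quantile scaling and probe summary used for these arrays, and every difference is the mean of MV4-11R less that of MV4-11. "Rose" and "fell" are used for an adjusted p under 0.05 in limma's test with Benjamini-Hochberg adjustment over all 18417 genes, with SE the moderated standard error and n = 2 arrays per line throughout. Separate cultures are not mentioned for the replicates in the labels, and the p-values reflect only how these arrays vary, which may be technical. Array medians lay between 6.75 and 6.78, and arrays of 1 line correlated at 0.994 and 0.993 across genes. EZH2 read 9.75 and 9.74 on the MV4-11 arrays and 9.90 and 9.29 on the MV4-11R arrays and did not pass (adjusted p = 0.734). These are RNA values, and EZH2 protein was not measured on the arrays. Signal of different probe sets is not compared between genes. As a guide to background, 95% of 341 olfactory receptor genes, a family restricted mostly to the nose, read below 6.26. Among genes typical of a myeloid line, SPI1 had a mean of 11.44 in MV4-11 and 11.40 in MV4-11R, while KIT and CD34 read under the guide in both lines. Of the 6 measured genes of that list 0 rose and 3 fell, with differences from -1.18 to -0.04 and a median of -0.52. Over all genes 7.92% rose and 7.13% fell.

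Of the 33 measured markers 4 rose, 6 fell and 23 did not pass, that is 30.3% passing against 15.1% of all genes (7.92% rose and 7.13% fell). The falls were of the scavenger receptor CD36, the lectin CLEC12A, the membrane proteins MS4A6A and MS4A4A, lysozyme LYZ and the nuclear protein MNDA. The rises were of the oxidase subunit CYBB, the lipid-presenting molecule CD1D and the inhibitory receptors LILRB2 and SIRPA. In bulk samples like these, fewer cells that express a gene and less RNA per cell cannot be told apart. Changes of at least 2-fold were found for 4 falls (CD36, CLEC12A, MS4A6A, MS4A4A) and 1 rise (CYBB), where 2.59% of all genes fell and 1.97% rose by as much. In all, 5 of 33 changed by 2-fold or more, against 4.56% of all genes. The median difference over the 33 markers was -0.04, against 0.01 over all genes. The 2 lines did not overlap for 23 of the 33 markers (69.7%), against 55.6% of all genes. Both lines read under the background guide for 7 markers, none of which passed, and for 5513 of all 18417 genes. With genes under the 25th percentile of level left out, 21.5% of the 13812 remaining genes passed, and 25 markers remained. Across all genes 2772 passed with all 4 arrays, and the number was 1588 when MV4-11 replicate 1 was dropped, 1638 when MV4-11 replicate 2 was dropped and 1699 when MV4-11R replicate 1 was dropped.

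**Figure D1:**
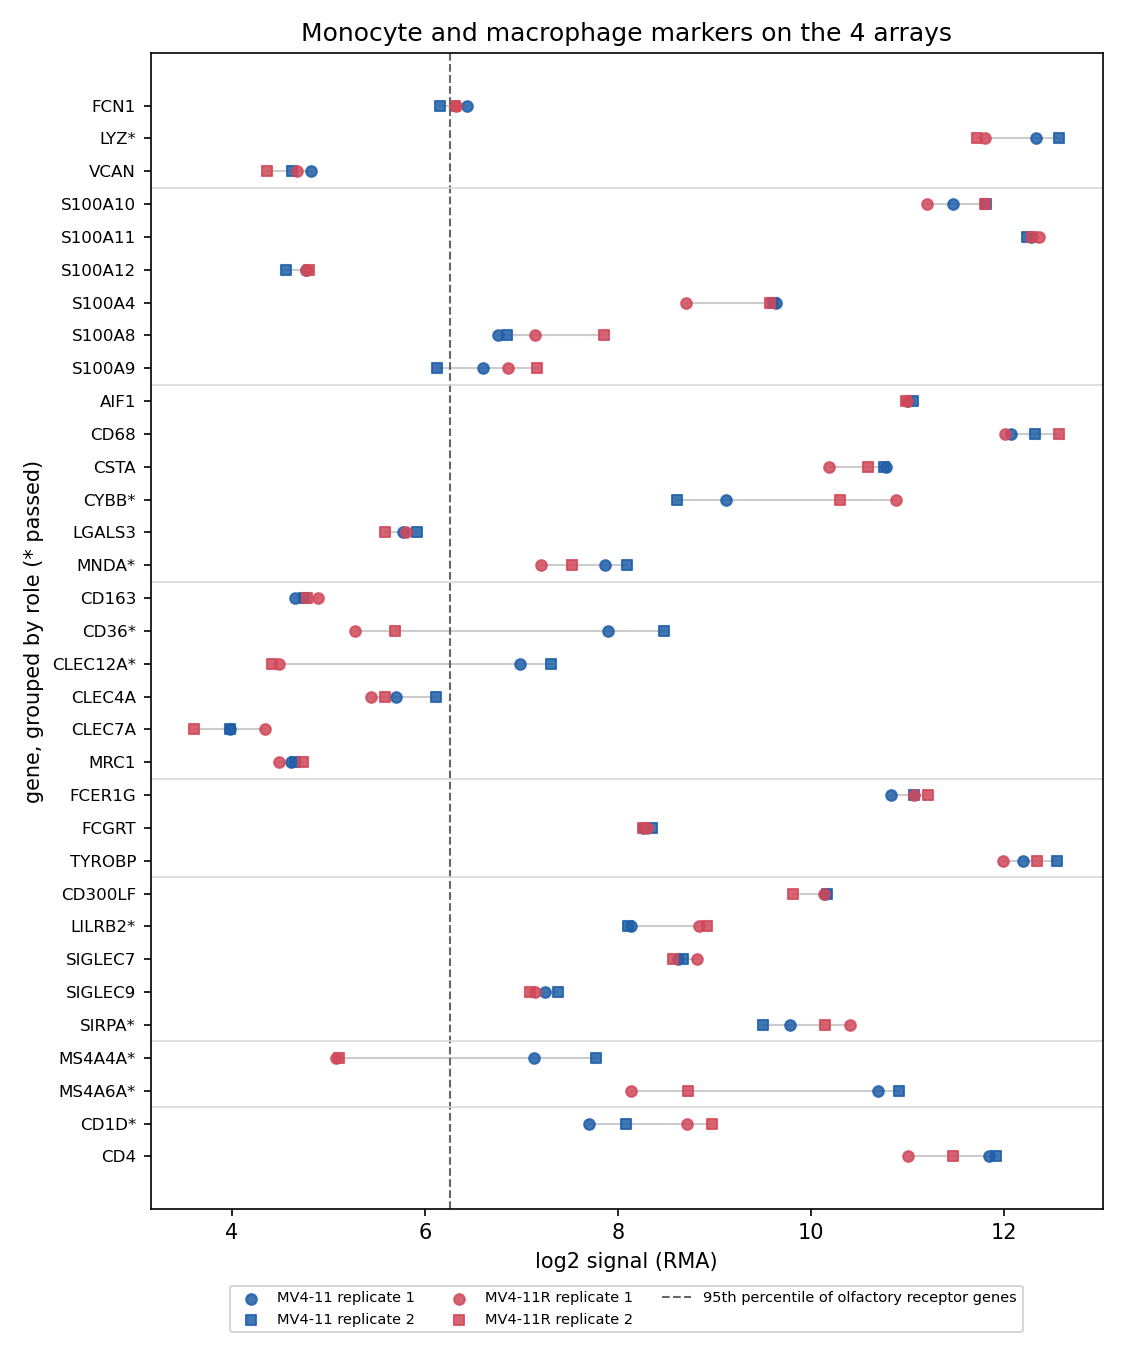
Log2 signal (RMA) of the 33 measured markers on each of the 4 arrays, grouped by role, with blue for MV4-11, red for MV4-11R, circles for replicate 1, squares for replicate 2 and a dashed line at the 95th percentile of olfactory receptor genes (6.26). CD36, CLEC12A, MS4A4A and MS4A6A show both red points far to the left of both blue points, and CYBB shows them to the right.

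**Figure D2:**
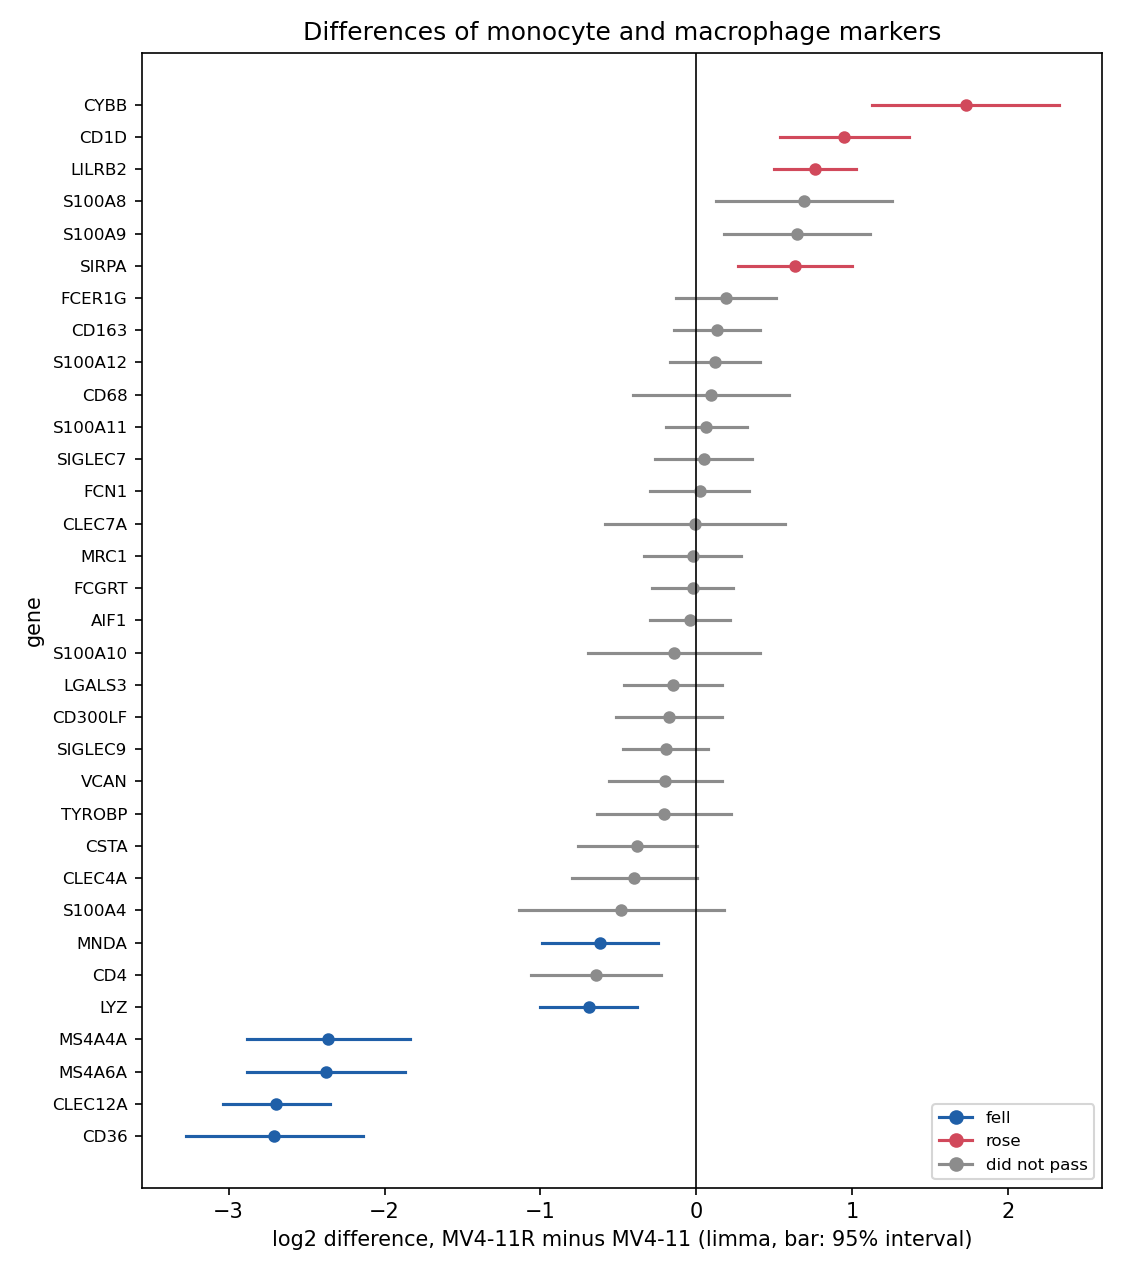
Log2 difference, MV4-11R minus MV4-11, of each measured marker with its 95% interval from limma, coloured by whether it rose, fell or did not pass the adjusted threshold. The 4 large falls lie between -2.71 and -2.36, apart from the other markers, and CYBB stands highest at 1.73.

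The scavenger receptors and lectins held the largest falls. CD36, which takes up oxidised lipoproteins, fatty acids and dying cells, read 7.89 and 8.48 on the MV4-11 arrays and 5.27 and 5.69 on the MV4-11R arrays. Both MV4-11R arrays lay under the background guide and well below both MV4-11 arrays. CD36 fell 6.53-fold (95% interval 4.41 to 9.68; log2 difference -2.71, SE 0.23, adjusted p = 0.00217). CLEC12A, an inhibitory lectin that is also an antigen of AML blasts, read 6.99 and 7.31 on the MV4-11 arrays and 4.49 and 4.41 on the MV4-11R arrays. It fell 6.48-fold (95% interval 5.11 to 8.21; log2 difference -2.70, SE 0.14, adjusted p = 6.56e-04), again from a level above the guide to one below it. Since both genes reached background in MV4-11R, the size of these folds is not exact. The other lectins and scavenger receptors did not pass and read under the guide in both lines. They were CLEC4A, an inhibitory lectin of monocytes and dendritic cells (-0.40, SE 0.17), CLEC7A, the beta-glucan receptor dectin-1 (-0.01, SE 0.24), the mannose receptor MRC1 (-0.02, SE 0.13) and the haemoglobin scavenger receptor CD163 (0.14, SE 0.11). Of this group 2 of 6 fell and 0 rose, where 7.13% of all genes fell and 7.92% rose.

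The MS4A family encodes membrane proteins that cross the membrane several times, of which MS4A4A and MS4A6A are typical of monocytes and macrophages. MS4A6A read 10.70 and 10.91 on the MV4-11 arrays and 8.13 and 8.72 on the MV4-11R arrays. It fell 5.19-fold (95% interval 3.65 to 7.38; log2 difference -2.38, SE 0.21, adjusted p = 0.00229) and stayed above the background guide. MS4A4A read 7.13 and 7.78 on the MV4-11 arrays and 5.08 and 5.11 on the MV4-11R arrays. It fell 5.13-fold (95% interval 3.57 to 7.37; log2 difference -2.36, SE 0.21, adjusted p = 0.00251) and ended under the guide, so its fold is not exact. Both arrays of MV4-11R lay below both arrays of MV4-11 for each gene.

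CYBB, the catalytic subunit gp91phox of the phagocyte NADPH oxidase, was the marker with the largest rise. It read 9.12 and 8.61 on the MV4-11 arrays and 10.88 and 10.31 on the MV4-11R arrays. All 4 values were above the background guide, and the lines did not overlap. CYBB rose 3.31-fold (95% interval 2.19 to 5.02; log2 difference 1.73, SE 0.24, adjusted p = 0.00926). The oxidase also needs a membrane partner, cytosolic subunits and a GTPase. Of 6 listed partner genes 4 were measured, with NCF4 the only cytosolic subunit among them apart from the GTPase. Of these 4 genes 0 rose and 0 fell, where 15.1% of all genes passed. The membrane partner CYBA had a difference of 0.03 (SE 0.11, adjusted p = 0.904), the chaperone of the heterodimer CYBC1 0.02 (SE 0.12), the cytosolic subunit NCF4 -0.28 (SE 0.13, adjusted p = 0.237) and the GTPase RAC2 -0.25 (SE 0.10). CYBA, CYBC1 and RAC2 were chosen after their values were seen.

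To show the regions ahead of the 5 markers that changed at least 2-fold, the 250 bases upstream of the first start listed for each gene are given, from RefSeq promoter windows of GRCh38.p14. Capitals mark every match to GAGGAA, a core sequence bound by PU.1 and other ETS factors, read on either strand, so a match on the opposite strand appears as TTCCTC. The window of CD36 is chr7:80601957-80602206 on the plus strand, that of CLEC12A chr12:9971159-9971408 on the plus strand, that of MS4A6A chr11:60184667-60184916 on the minus strand, that of MS4A4A chr11:60280416-60280665 on the plus strand and that of CYBB chrX:37779809-37780058 on the plus strand. CD36 has 6 starts listed and MS4A6A has 4, of which only the first is shown.
CD36: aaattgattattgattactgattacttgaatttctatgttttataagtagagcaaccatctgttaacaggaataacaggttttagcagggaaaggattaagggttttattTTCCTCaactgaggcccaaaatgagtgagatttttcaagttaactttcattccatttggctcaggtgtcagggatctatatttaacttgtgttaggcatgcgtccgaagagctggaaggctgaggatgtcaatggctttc
CLEC12A: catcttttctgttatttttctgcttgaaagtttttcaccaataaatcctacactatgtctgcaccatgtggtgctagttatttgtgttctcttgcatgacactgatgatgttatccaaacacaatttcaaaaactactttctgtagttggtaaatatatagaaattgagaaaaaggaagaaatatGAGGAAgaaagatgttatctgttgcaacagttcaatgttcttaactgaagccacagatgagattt
MS4A6A: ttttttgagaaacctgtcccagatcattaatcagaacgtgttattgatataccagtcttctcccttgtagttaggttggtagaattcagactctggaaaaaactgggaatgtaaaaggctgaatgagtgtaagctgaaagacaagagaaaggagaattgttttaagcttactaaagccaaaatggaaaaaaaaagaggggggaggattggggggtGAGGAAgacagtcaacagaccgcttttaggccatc
MS4A4A: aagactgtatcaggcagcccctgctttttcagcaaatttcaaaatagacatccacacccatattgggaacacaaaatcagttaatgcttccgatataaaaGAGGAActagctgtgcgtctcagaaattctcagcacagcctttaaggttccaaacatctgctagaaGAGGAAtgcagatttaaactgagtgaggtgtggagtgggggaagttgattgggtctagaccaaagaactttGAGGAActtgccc
CYBB: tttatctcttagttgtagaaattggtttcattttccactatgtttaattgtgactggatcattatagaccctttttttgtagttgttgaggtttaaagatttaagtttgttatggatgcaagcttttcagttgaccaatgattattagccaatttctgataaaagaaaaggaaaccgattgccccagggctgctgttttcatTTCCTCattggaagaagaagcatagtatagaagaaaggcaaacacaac

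Each of these 5 windows held GAGGAA. MS4A4A held 3 matches, which began 150, 84 and 13 bases before the start, and the others held 1, which began 48 bases before the start in CYBB, 35 in MS4A6A, 65 in CLEC12A and 140 in CD36. A window was found for 29 of the 37 listed genes, and 20 of them (69.0%) held the motif, against 23.4% of the first windows of 27305 genes. It was present in 7 of 8 windows of markers that passed and in 9 of 17 of markers that did not. CD1D held it among the risen markers and LILRB2 did not. TTGCNNAA, a form of the C/EBP site (N is any base), was searched on both strands too and was found in 6 of 29 windows (20.7%), against 9.1% of all. Among the 5 genes shown only MS4A4A held it. Base composition of the windows was not matched, and a match in these letters is not evidence of binding.

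The largest changes and the rises of CD1D and LILRB2 were set against the genes beside them, taking 12 measured genes on each side in RefSeq order. Over all genes 7.92% rose and 7.13% fell. Around MS4A4A on chromosome 11, 2 of 24 neighbours fell and 0 rose, and these were the adjacent MS4A6A and MS4A6E (log2 difference -0.74, SE 0.12, adjusted p = 0.0147), a close paralogue whose probes may share signal with MS4A6A. MS4A6E read under the background guide in both lines. MS4A6E no longer passed with 1 array removed, at an adjusted p of 0.0621 when MV4-11 replicate 1 was dropped and 0.0516 when MV4-11R replicate 1 was dropped. MS4A3, which lies next to MS4A6A and is a gene of granulocyte-monocyte progenitors, had a difference of 0.52 and did not pass (adjusted p = 0.357; chosen after its value was seen). Of 9 other measured MS4A genes 0 rose and 1 fell, and 8 read under the guide in both lines. The share passing was 11.1%, against 15.1% of all genes.

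Around CLEC12A on chromosome 12, 5 of 24 neighbours fell and 0 rose, where 7.13% of all genes fell. They include CLEC12B, an inhibitory lectin (log2 difference -1.70, SE 0.17, adjusted p = 0.00314; both lines under the background guide), and CLEC2D, a ligand of a natural killer cell receptor (log2 difference -0.85, SE 0.13, adjusted p = 0.0119). The other 3, chosen after their values were seen, were the lectin-like CLECL1 at -1.85 (adjusted p = 0.00313), the autophagy gene GABARAPL1 at -0.65 (0.0465) and the natural killer receptor gene KLRC3 at -0.98 (0.0142). KLRC3 read under the background guide in both lines, and CLECL1 ended under it in MV4-11R. GABARAPL1 did not pass when MV4-11 replicate 2 was dropped (adjusted p = 0.165) and when MV4-11R replicate 1 was dropped (0.156). The changes were not shared by all genes of the stretch, whose median difference was -0.11. CLEC12A and CLEC12B are paralogues, so their signals may not be fully separate. Of 12 other C-type lectins 0 rose, 2 fell and 10 did not pass, with 11 under the guide in both lines. The share passing was 16.7%, against 15.1% of all genes. 

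Around CYBB on the X chromosome 4 of 24 neighbours rose and 0 fell, with a median of 0.10, where 7.92% of all genes rose. The 3 measured genes next to CYBB on one side were among them. XK, which encodes a red cell membrane protein, had a mean of 6.64 in MV4-11 and 9.04 in MV4-11R (difference 2.40, adjusted p = 0.00154). PRRG1 rose from under the background guide (difference 2.74, adjusted p = 0.00155), and the differences of XK and PRRG1 were larger than the 1.73 of CYBB. LANCL3 (0.43, adjusted p = 0.0478) and CFAP47 (1.33, 0.00941) read under the guide in both lines, and LANCL3 did not pass whichever of the 4 arrays was dropped (adjusted p from 0.0895 to 0.180). DYNLT3, next to CYBB on the other side, had a difference of -0.05 and did not pass (adjusted p = 0.835). These 5 genes were chosen after their values were seen, and the part of the region in the rise of CYBB was not tested. Around CD36 2 of 24 neighbours rose and 2 fell, with a median of -0.05, and around CD1D 0 rose and 1 fell. Near CD36 the rises were of SEMA3A (1.65, adjusted p = 0.00400) and ZP3 (1.56, 0.00404). The falls there were of FGL2 (-3.57, 0.00229) and CCDC146 (-1.11, 0.00398), and that of FGL2 was larger than the -2.71 of CD36. FGL2 ended under the guide. Near CD1D the fall was of PEAR1 (-0.62, 0.0187). All were chosen after their values were seen.

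Around LILRB2 on chromosome 19, 5 of 24 neighbours rose and 1 fell, with a median of 0.14, where 7.92% of all genes rose and 7.13% fell. The rises were of LENG9 (1.04, adjusted p = 0.00690), TFPT (0.93, 0.00710), the inhibitory collagen receptor LAIR1 (0.66, 0.0237), LILRA5 (0.52, 0.0324) and the splicing factor PRPF31 (0.49, 0.0309), and the fall was of KIR3DX1 (-0.62, 0.0161). LENG9 and TFPT passed whichever array was dropped, and LILRA5 and PRPF31 did not pass with any dropped (adjusted p from 0.0759 to 0.129 for PRPF31 and from 0.0695 to 0.152 for LILRA5). LAIR1 did not pass when MV4-11 replicate 2 was dropped (0.0965) and when MV4-11R replicate 1 was dropped (0.0846), nor did KIR3DX1 when MV4-11 replicate 1 (0.0526) and when MV4-11 replicate 2 (0.0724) was dropped. Apart from LILRA5 these genes were chosen after their values were seen. The adjacent LILRB5 (0.03), LILRA6 (0.12) and LILRB3 (0.15) did not pass, and the part of the region in the rise of LILRB2 was not tested.

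**Figure D3:**
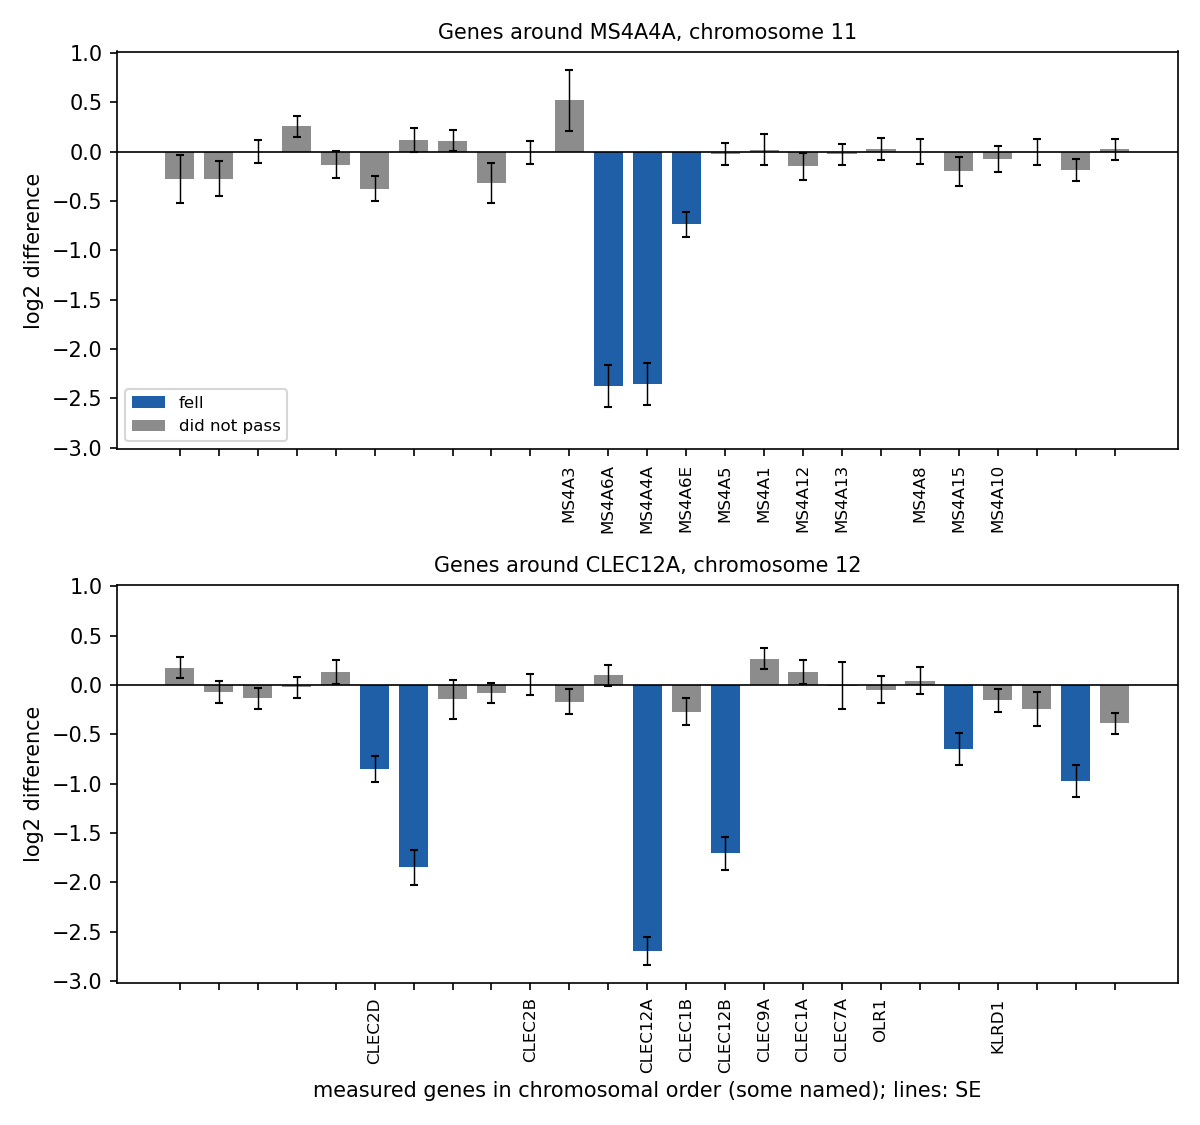
Log2 difference, MV4-11R minus MV4-11, of the 12 measured genes on each side of MS4A4A (upper) and CLEC12A (lower) in chromosomal order, with bars for the difference, lines for the SE and blue for genes that fell. In the upper panel 3 adjacent MS4A genes fell and the other genes, not all of the MS4A family, lie between -0.38 and 0.52. Around CLEC12A 6 falling genes, CLEC12A included, lie among others between -0.39 and 0.27.

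Of 3 secreted and matrix proteins 1 fell, where 7.13% of all genes fell. LYZ, the bacterial cell wall hydrolase lysozyme, read 12.33 and 12.57 on the MV4-11 arrays and 11.81 and 11.72 on the MV4-11R arrays. The lines did not overlap, and LYZ fell 1.61-fold (95% interval 1.30 to 2.001; log2 difference -0.69, SE 0.13, adjusted p = 0.0192). LYZ no longer passed with 1 array removed, at an adjusted p of 0.0780 when MV4-11 replicate 2 was dropped and 0.0542 when MV4-11R replicate 2 was dropped. The blood lectin FCN1 lay close to the background guide in both lines with a difference of 0.02 (SE 0.13), and the proteoglycan VCAN lay under it with -0.20 (SE 0.15).

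The 6 S100 genes encode calcium-binding proteins, and 0 of 6 passed (adjusted p from 0.0781 to 0.773), where 15.1% of all genes passed. The lines did not overlap for 5 of the 6, where they did not overlap for 55.6% of all genes. S100A8 and S100A9 form calprotectin, an abundant antimicrobial protein of monocytes and neutrophils. S100A8 read 6.76 and 6.85 on the MV4-11 arrays and 7.14 and 7.86 on the MV4-11R arrays, and S100A9 read 6.60 and 6.13 on the MV4-11 arrays and 6.86 and 7.17 on the MV4-11R arrays. Both MV4-11R arrays were above both MV4-11 arrays for each gene, with differences of 0.69 (SE 0.23, adjusted p = 0.105) and 0.65 (SE 0.19, adjusted p = 0.0781). S100A8 passed without MV4-11R replicate 1 (adjusted p = 0.0125) and S100A9 without MV4-11 replicate 1 (0.0376). S100A12, the third gene of that inflammatory group, read under the guide on all 4 arrays. S100A4, linked to cell motility, read 9.64 and 9.60 on the MV4-11 arrays and 8.71 and 9.57 on the MV4-11R arrays, so that only MV4-11R replicate 1 stood low (log2 difference -0.48, SE 0.27, adjusted p = 0.321). It passed without MV4-11R replicate 2 (adjusted p = 0.0133). S100A11 read 12.28 and 12.24 on the MV4-11 arrays and 12.36 and 12.29 on the MV4-11R arrays, with a difference of 0.07 (95% interval -0.19 to 0.33). S100A10, the partner of annexin A2, read 11.47 and 11.82 on the MV4-11 arrays and 11.20 and 11.80 on the MV4-11R arrays and had a difference of -0.14 (SE 0.23), whereas ANXA2 itself fell 1.99-fold (adjusted p = 0.0455). ANXA2 no longer passed with 1 array removed, at an adjusted p of 0.0895 when MV4-11 replicate 1 was dropped, 0.111 when MV4-11 replicate 2 was dropped and 0.0559 when MV4-11R replicate 1 was dropped. Of 14 other S100 and annexin genes 0 rose, 2 fell and 12 did not pass, the other fall being of S100B (1.66-fold, adjusted p = 0.0390). The share passing was 14.3%, against 15.1% of all genes. S100B no longer passed with 1 array removed, at an adjusted p of 0.128 when MV4-11 replicate 2 was dropped and 0.128 when MV4-11R replicate 1 was dropped.

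Of the lysosomal, cytoplasmic and oxidase markers 1 of 6 rose (CYBB) and 1 fell, where 7.92% of all genes rose and 7.13% fell. MNDA, an interferon-inducible nuclear protein of myeloid cells, read 7.87 and 8.09 on the MV4-11 arrays and 7.20 and 7.52 on the MV4-11R arrays. It fell 1.53-fold (95% interval 1.18 to 1.98; log2 difference -0.62, SE 0.15, adjusted p = 0.0461), with no overlap between the lines. MNDA no longer passed with 1 array removed, at an adjusted p of 0.0667 when MV4-11 replicate 1 was dropped, 0.165 when MV4-11 replicate 2 was dropped and 0.151 when MV4-11R replicate 1 was dropped. CD68, the lysosomal glycoprotein used as a macrophage stain, read 12.08 and 12.32 on the MV4-11 arrays and 12.01 and 12.58 on the MV4-11R arrays, and the lines overlapped (log2 difference 0.09, SE 0.21, adjusted p = 0.840). AIF1, the actin-binding protein also called IBA1, read 11.01 and 11.06 on the MV4-11 arrays and 11.00 and 10.99 on the MV4-11R arrays, with a difference of -0.04 and a 95% interval of -0.30 to 0.22. It had 3 probe sets, which gave the same values. CSTA, an inhibitor of cysteine proteases, read 10.78 and 10.76 on the MV4-11 arrays and 10.19 and 10.60 on the MV4-11R arrays. It did not pass (difference -0.38, SE 0.16, adjusted p = 0.180), but did without MV4-11R replicate 2 (adjusted p = 0.0476). The galactose-binding lectin LGALS3 lay under the background guide in both lines, with a difference of -0.15 (SE 0.13).

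The 3 measured genes of Fc receptors and ITAM adaptors did not pass, where 15.1% of all genes passed. TYROBP read 12.20 and 12.55 on the MV4-11 arrays and 11.99 and 12.34 on the MV4-11R arrays, with overlapping lines and a difference of -0.21 (95% interval -0.64 to 0.22, adjusted p = 0.528). FCER1G, the shared signalling chain of Fc receptors, read 10.83 and 11.07 on the MV4-11 arrays and 11.07 and 11.21 on the MV4-11R arrays, and its difference was 0.19 (95% interval -0.13 to 0.51, adjusted p = 0.422). FCGRT, the neonatal Fc receptor that recycles IgG, differed by -0.02 (95% interval -0.29 to 0.24). TREM1, a TYROBP-coupled receptor that amplifies inflammation, read 6.66 and 6.14 on the MV4-11 arrays and 9.76 and 9.31 on the MV4-11R arrays and rose 8.80-fold (log2 difference 3.14, SE 0.22, adjusted p = 0.00154). TREM2, a lipid-sensing partner of TYROBP in macrophages, read 5.9997 and 6.32 on the MV4-11 arrays and 7.89 and 8.24 on the MV4-11R arrays and rose 3.75-fold (log2 difference 1.91, SE 0.17, adjusted p = 0.00251). SIRPB1, another TYROBP partner (chosen after its value was seen), rose 2.50-fold (adjusted p = 0.00962). Among other measured receptors that couple to TYROBP or FCER1G, 4 that did not pass were CLEC5A (0.58, adjusted p = 0.177) and FCGR3A (-0.09, 0.693), both under the background guide in both lines, and LILRA1 (-0.14, 0.618) and LILRA2 (0.06, 0.870), all 4 chosen after their values were seen. Other activating receptors did rise, namely LILRA5 (0.52, adjusted p = 0.0324; under the guide in both lines) and CD300C, both given below with their families.

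Among 4 measured kinases of the ITAM and ITIM signalling list 1 rose, 1 fell and 2 did not pass. SYK, which docks on phosphorylated ITAMs, read 10.34 and 10.25 on the MV4-11 arrays and 9.05 and 9.10 on the MV4-11R arrays and fell 2.33-fold (log2 difference -1.22, SE 0.11, adjusted p = 0.00230). FGR, a Src family kinase of myeloid cells, read 8.42 and 8.86 on the MV4-11 arrays and 10.78 and 11.06 on the MV4-11R arrays and rose 4.86-fold (log2 difference 2.28, SE 0.18, adjusted p = 0.00194). For SYK and FGR the lines did not overlap. LYN, another Src family kinase, had a difference of -0.18 (adjusted p = 0.356) and BTK one of -0.11 (0.716), both chosen after their values were seen. Of 15 measured genes of ITAM and ITIM signalling 3 rose, 1 fell and 11 did not pass, and the list median was 0.10. The share passing was 26.7%, against 15.1% of all genes. The mean of MV4-11 for TREM2 lay under the background guide, so its fold is not exact.

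**Figure D4:**
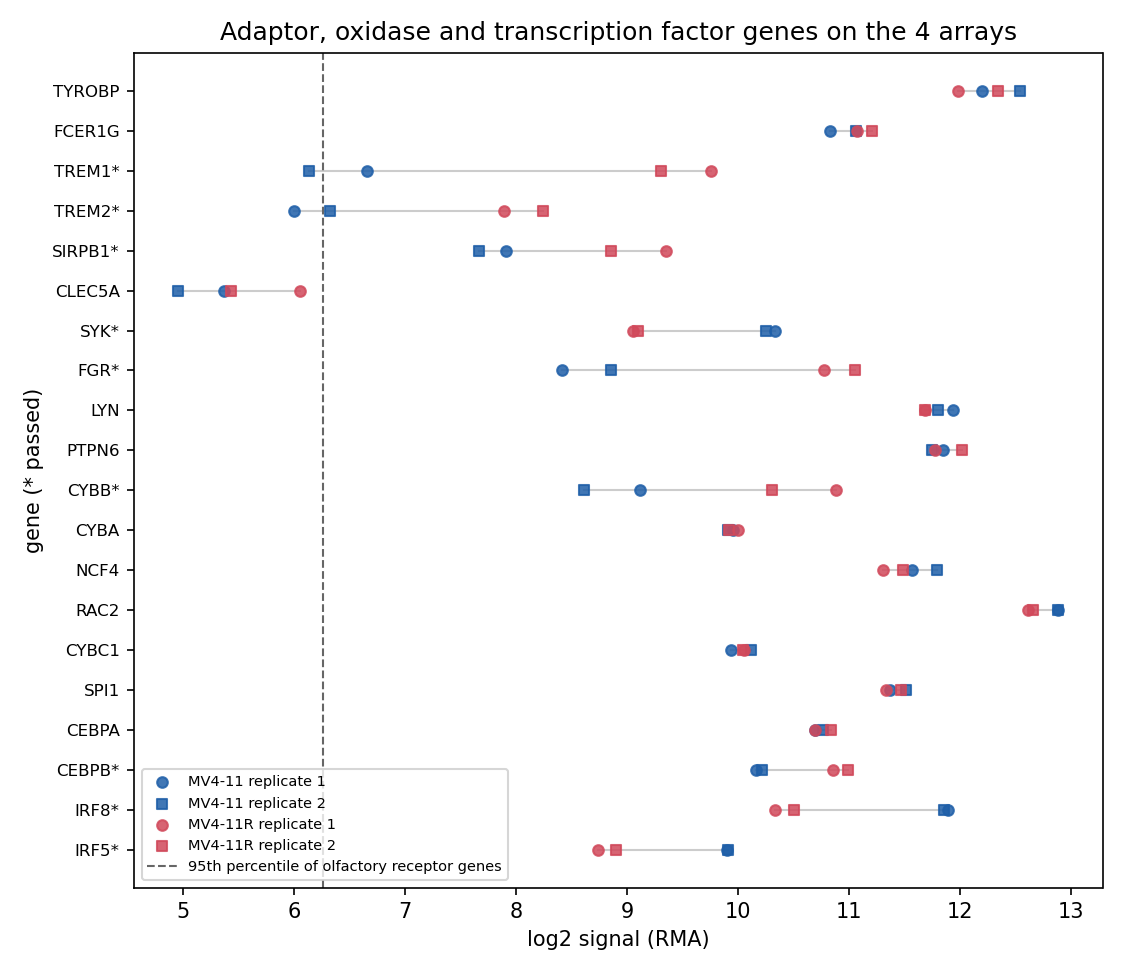
Log2 signal (RMA) on each of the 4 arrays for the adaptors and their receptors and kinases, the NADPH oxidase genes and myeloid transcription factors, with colours and symbols for line and replicate, a dashed line at 6.26 and asterisks for genes that passed. TYROBP, CYBA and SPI1 have close or overlapping lines, whereas TREM1, FGR and CYBB are higher and SYK and IRF8 lower in MV4-11R.

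Among the inhibitory receptors 2 of 5 measured genes rose and 0 fell, where 7.92% of all genes rose and 7.13% fell. LILRB2, which binds MHC class I molecules, read 8.14 and 8.11 on the MV4-11 arrays and 8.85 and 8.92 on the MV4-11R arrays. The arrays of each line lay close together, and LILRB2 rose 1.70-fold (95% interval 1.42 to 2.03; log2 difference 0.76, SE 0.11, adjusted p = 0.00884). SIRPA, the receptor for the CD47 signal that restrains phagocytosis, read 9.78 and 9.51 on the MV4-11 arrays and 10.41 and 10.15 on the MV4-11R arrays. It rose 1.55-fold (95% interval 1.20 to 2.003; log2 difference 0.63, SE 0.15, adjusted p = 0.0413). SIRPA no longer passed with 1 array removed, at an adjusted p of 0.151 when MV4-11 replicate 2 was dropped and 0.139 when MV4-11R replicate 1 was dropped. SIRPA and SIRPB1 are similar in sequence, so their signals may not be fully separate. Over the 45 genes nearest to SIRPA on chromosome 20 whose mean signal was above the median of all genes (up to 30 on each side), the median difference was 0.26, and its part in the rise of SIRPA was not tested. The sialic acid receptors SIGLEC7 (0.05, 95% interval -0.26 to 0.36) and SIGLEC9 (-0.19, 95% interval -0.47 to 0.08) and the lipid receptor CD300LF (-0.18, 95% interval -0.52 to 0.16) did not pass.

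Of 19 other LILR, SIGLEC and CD300 genes 2 rose, 1 fell and 16 did not pass, a share of 15.8% passing against 15.1% of all genes. CD300C, an activating relative of CD300LF, rose 1.79-fold (adjusted p = 0.00766), LILRA5 rose 1.43-fold (0.0324) and SIGLEC10 fell 1.47-fold (0.0204). The calls on LILRA5 and SIGLEC10 were each lost whichever of the 4 arrays was dropped, with an adjusted p from 0.0695 to 0.152 for LILRA5 and from 0.0548 to 0.0929 for SIGLEC10. LILRA5 read under the background guide in both lines, so its fold is not exact. Members of the LILR and SIGLEC families are similar in sequence, so signal of single genes may be shared.

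CD1D, which presents lipids to natural killer T cells, and CD4, the T-cell coreceptor that monocytes also carry, make up the last group. CD1D read 7.70 and 8.09 on the MV4-11 arrays and 8.71 and 8.98 on the MV4-11R arrays and rose 1.93-fold (95% interval 1.45 to 2.58; log2 difference 0.95, SE 0.17, adjusted p = 0.0179). The lines did not overlap. CD1D no longer passed with 1 array removed, at an adjusted p of 0.0523 when MV4-11 replicate 1 was dropped. CD4 read 11.85 and 11.92 on the MV4-11 arrays and 11.01 and 11.47 on the MV4-11R arrays. Both MV4-11R arrays were below both MV4-11 arrays, and CD4 missed the threshold (log2 difference -0.64, SE 0.17, adjusted p = 0.0570). It passed when genes under the 25th percentile of level were left out (adjusted p = 0.0479), with a level-dependent prior variance (0.0412) and without MV4-11R replicate 2 (0.0153).

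Monocyte markers outside the 37 genes were counted from a list of 15. Of these 2 rose, 5 fell and 8 did not pass, with a median difference of -0.63. The share passing was 46.7%, against 15.1% of all genes. The properdin gene CFP, of the complement system, rose 4.49-fold (adjusted p = 0.00259) and the endotoxin receptor TLR4 2.01-fold (0.00452). The costimulatory ligand CD86 fell 7.60-fold (adjusted p = 0.00159) and the growth factor receptor CSF1R 3.31-fold (0.00939). The other falls, chosen after their values were seen, were of the cytokine receptor chain CSF2RA (-1.53), the bacterial lipoprotein receptor TLR2 (-1.13) and the chemokine receptor CX3CR1 (-1.08). CD14, the classical monocyte marker (chosen after its value was seen), had a mean of 6.09 in MV4-11, under the background guide, and 6.86 in MV4-11R and did not pass (difference 0.77, SE 0.24, adjusted p = 0.0855). All other genes of the list that did not pass had negative differences, from -1.01 (ITGAX, adjusted p = 0.0844) to -0.03 (SERPINA1, 0.914). They included FCGR2A (-0.69, 0.0600), CTSS (-0.63, 0.0509) and CCR2 (-0.62, 0.179). Of 18 other macrophage markers 1 rose (TREM2), 2 fell and 15 did not pass, a share of 16.7% passing against 15.1% of all genes. The falls were of the lysosomal protease CTSL (2.87-fold, adjusted p = 0.00281) and the lysosomal lipase LIPA (2.31-fold, adjusted p = 0.00491). CTSL ended under the guide, so its fold is not exact.

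Of 18 measured transcription factors of the monocyte lineage 1 rose, 3 fell and 14 did not pass, a share of 22.2% passing against 15.1% of all genes. CEBPB read 10.16 and 10.22 on the MV4-11 arrays and 10.85 and 10.99 on the MV4-11R arrays and rose 1.66-fold (log2 difference 0.73, SE 0.11, adjusted p = 0.0116). IRF8, which directs progenitors to the monocyte and dendritic cell branches, read 11.90 and 11.86 on the MV4-11 arrays and 10.33 and 10.51 on the MV4-11R arrays and fell 2.75-fold (log2 difference -1.46, SE 0.12, adjusted p = 0.00192). IRF5, an inducer of inflammatory genes in macrophages, fell 2.12-fold (adjusted p = 0.00398). The third fall was of TFEC (-0.94, adjusted p = 0.0344; chosen after its value was seen). TFEC no longer passed with 1 array removed, at an adjusted p of 0.104 when MV4-11 replicate 2 was dropped and 0.0841 when MV4-11R replicate 1 was dropped. The PU.1 gene SPI1 had a difference of -0.04 (SE 0.12) and CEBPA one of 0.04 (SE 0.11). SPI1 and CEBPA did not pass and were picked with their values known.

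Markers of other lineages were counted beside these results, and their part in them was not tested. Over all genes 15.1% passed. The share was 16.7% for granulocyte, 33.3% for dendritic cell, 33.3% for B cell and 18.2% for T and NK cell markers. It was 12.5% for erythroid and megakaryocytic markers, 11.1% for epithelial and fibroblast markers and 50% for myeloid line identity. Of 12 granulocyte markers 2 rose, PRTN3 (2.88-fold) and AZU1 (1.66-fold), and 0 fell, and the mean log2 signal of the list ran from 7.96 to 8.20 on the MV4-11 arrays and from 8.37 to 8.58 on the MV4-11R arrays. Of 9 dendritic cell markers 1 rose (BATF3, 0.61) and 2 fell (IL3RA, -0.89, and CCR7, -0.78), and the mean log2 signal of the list ran from 6.13 to 6.20 on the MV4-11 arrays and was 5.98 on both MV4-11R arrays. Of 9 B cell markers 2 rose (PAX5, 0.80, and IGLL1, 0.73) and 1 fell (CD79B, -1.09), with a range of 6.57 to 6.58 in MV4-11 and 6.59 to 6.77 in MV4-11R. Of 11 T and NK cell markers 1 rose (NKG7, 0.94) and 1 fell (NCAM1, -2.06), while the mean log2 signal of the list ran from 6.34 to 6.46 on the MV4-11 arrays and from 6.33 to 6.38 on the MV4-11R arrays, with the T-cell receptor chains CD3D, CD3E and CD3G under the background guide in both lines. Of 8 erythroid and megakaryocytic markers 0 rose and 1 fell (ITGA2B, -0.67), and the mean log2 signal of the list ran from 6.27 to 6.32 on the MV4-11 arrays and from 6.25 to 6.36 on the MV4-11R arrays. Of 9 epithelial and fibroblast markers 0 rose and 1 fell (KRT18, -0.58), and the mean log2 signal of the list ran from 6.39 to 6.41 on the MV4-11 arrays and from 6.27 to 6.39 on the MV4-11R arrays. Of 6 measured genes of myeloid line identity 0 rose and 3 fell, FLT3 (-0.93), the peptidase ANPEP (-1.18) and the phosphatase PTPRC (-0.81, chosen after its value was seen). Several of these calls rested on single arrays. BATF3, PAX5, IGLL1, ITGA2B and PTPRC each missed the threshold when either MV4-11 array or MV4-11R replicate 1 was dropped, at an adjusted p from 0.0521 to 0.125. AZU1 missed it when MV4-11 replicate 1 was dropped (0.0604), CCR7 when MV4-11 replicate 2 was (0.0524) and IL3RA when MV4-11R replicate 1 was (0.0522). KRT18 had an adjusted p of 0.123 when MV4-11 replicate 1 was dropped, 0.0647 when MV4-11 replicate 2 was dropped and 0.0872 when MV4-11R replicate 2 was dropped, and one of 0.0512 with the mean over its probe sets.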

How the data were processed

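RNA of 2 MV4-11 and 2 MV4-11R arrays was compared. The authors deposited log2 signal per probe set (RMA values), and the submitters' processing notes name RMA and Affymetrix Expression Console without versions. The log2 scale was read from the range of the values. Of 33297 probe sets, the platform annotation paired 19460 with 1 gene, 1754 with several and left 12083 unnamed. Symbols were updated by Entrez ID through a RefSeq table (GRCh38.p14; 31 probe sets found no match), which also gave gene order. The brightest single-gene probe set was kept per gene, leaving 18417 genes with no filter on level. Genes were tested with limma 3.58.1 (lmFit, eBayes, R 4.3.3), 2-sided, with 6.06 degrees of freedom including the prior. The code was tested on simulated data. The number of arrays limits the precision.

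The members and lists were chosen with earlier results of these data known. Named were all members, with array values by rule for those that passed and for the 4 with the highest mean signal. Array values of CD4, S100A4, S100A8, S100A9, S100A10, AIF1, CSTA and FCER1G were added after they were seen. From each companion list at most 2 rises and 2 falls were named by rule, those of largest size that passed, or failing any the gene that differed most. Further genes of these lists were named outside this rule, many after their values were seen. The alternatives were median centring, quantile normalization, a level filter at the 25th percentile, the mean over probe sets, a prior variance trend, a replicate block and leaving out each array. FCGR1A, MS4A7, CD33 and LILRB4 were not analysed here.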

Additional observations from a re-analysis of the deposited data

How the results depend on the processing

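Under the 10 alternatives the counts of markers that rose (3 to 5) and fell (4 to 8) stayed within 1.5 times the reported 4 and 6. CD36, CLEC12A, MS4A6A, MS4A4A, CYBB and LILRB2 passed in the same direction under each alternative in which they were tested, 9 for CLEC12A and 10 for the others. The mean over probe sets could not alter the signal of any marker, since each had 1 probe set or ones with equal values. Median centring and quantile normalization acted on values that RMA had already scaled. Under each of these the calls of all 33 markers stayed the same. Without 1 array, when the lone array of a line is assumed to vary like the other line's, the count of all passing genes ran from 1588 to 2479. Differences of 7 markers that did not pass changed sign without 1 array, over ranges of -0.189 to 0.375 for CD68, -0.114 to 0.159 for FCN1, -0.446 to 0.158 for S100A10, -0.0678 to 0.0197 for FCGRT, -0.149 to 0.105 for MRC1, -0.0767 to 0.173 for SIGLEC7 and -0.378 to 0.363 for CLEC7A. Quantile normalization gave 0.0123 for MRC1 and 5.37e-04 for CLEC7A. The cause was not tested. The replicate numbers are not described as pairs. Differences between replicates 1 and 2 correlated at 0.262 between the lines across genes, and with the replicate number as a block 3642 genes passed, 5 markers rose and 7 fell, S100A8 (adjusted p = 0.0442) and CD4 (0.0284) being added. Of 42 companion genes recomputed, 15 lost their call in at least 1 alternative and 0 changed sign. Signal near background limits the folds of CD36, CLEC12A, MS4A4A, TREM2, CTSL and LILRA5.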
